A study of Mus musculus with 6 samples.

Results

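The genes described here are the rows of the authors' deposited table that carry a gene symbol in place of an assembler identifier. They were chosen by name alone, and there were 104 of them among 34518 listed features. Of the 104 symbols, 52 were RIKEN clone names ending in Rik, 31 were Gm numbers, 8 ended in -ps for pseudogene and 13 had another form, such as Miat or Ctcflos. RefSeq classed 87 as long noncoding RNA genes, 10 as transcribed pseudogenes, 4 as protein-coding and 1 as a miscellaneous RNA, and it held no record for the other 2. By name or by either annotation 16 were pseudogenes, and 5, among them the anion exchanger gene Slc4a9, were protein-coding in at least 1 annotation. The label "noncoding" therefore did not hold for each of the 104.

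RNA came from left atria of adult CD1 mice. The 3 FOG2_OE libraries overexpressed FOG2, and the 3 WT libraries were wild type. All 6 came from animals kept off doxycycline for 1 week, and the RNA was depleted of ribosomal and polyadenylated transcripts. The labels do not give the promoter that drives FOG2 or say whether the WT animals carried any part of the transgene. The protocol calls the animals DTG and NTG without spelling these out. The labels also do not say whether tissue was pooled or whether libraries shared a litter or day.

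FOG2, encoded by Zfpm2, is a multi-zinc-finger protein that binds GATA transcription factors and can turn their activity up or down. With GATA4 and the T-box factor TBX5 it belongs to the regulators that shape heart muscle. Long noncoding RNAs are made by RNA polymerase II, are often spliced and nuclear, and are on the whole scarcer and more restricted to particular cell types than mRNAs. Most Rik and Gm genes have no known function, and those named here are described by their position. Transcribed pseudogenes are copies of coding genes that can share reads with their parent gene.

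The 6 sample columns held values fitted by the authors' model. Within a group they differed only by library size, with a largest relative spread of 1.8e-14 between features, and so they carry no spread between replicates. Fitted values are given below as fitted counts of a library, or as CPM, the same counts scaled to the effective library. Effective libraries ran from 71029027 to 84726438 reads. Fold changes are the deposited log2 values of FOG2_OE over WT, and a gene was called at an adjusted p under 0.05 over all 34518 features. Ratios written as -fold come from fitted CPM and need not equal the deposited value. At low counts the 2 differ: 4930429D17Rik is listed at -4.82 although its fitted level in FOG2_OE was 0. The standard error beside a fold change was implied by the likelihood ratio of the table and covers scatter as the authors modelled it. Low counts limit what can be said of these genes. The median member had 4.40 fitted counts per library, against 7.23 for the unnamed features, and 84 of the 104 had under 10. Levels here are those left after depletion of polyadenylated transcripts, and how much of each gene's RNA that removed was not measured. Words such as scarce or best expressed below refer to these libraries only. The median implied standard error of the members was 0.96 on the log2 scale. As a rough guide, the ratio of a fold change to its error puts a call at about 2.86 on the log2 scale for that error. At the smallest error of a member, 0.44, the guide gives 1.30. The likelihood ratio test can depart from this guide at low counts. D030045P18Rik was called at -3.43 with an implied error of 1.27, which the guide would not have passed. The feature inside Zfpm2, which checks the labels, stood at 417 CPM in FOG2_OE against 0.485 CPM in WT. None of 18 marker symbols of atrium, ventricle, fibroblast, endothelium, leukocyte, neuron or smooth muscle is a symbol of the table, so that tissue purity could not be checked with these genes. By position, on either strand, listed features overlapped Pecam1 (6), Sln (3), Myl4 (3), Col1a1 (2), Myl7 (1), Cdh5 (1) and Cd68 (1). The other markers, those of ventricle among them, had 0. Such an overlap is not a measure of the marker's mRNA. In bulk tissue, fewer cells of a type and less RNA per cell cannot be told apart.

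Start-site sequences are shown for the called gene with the smallest adjusted p in each direction, A730036I17Rik (higher) and Gm1600 (lower). They are also shown for D030045P18Rik and 4930429D17Rik, both lower, the called genes whose windows held a searched form of the GATA motif. Each window runs from 250 bases before to 50 bases after the RefSeq start (GRCm38.p6), written 5′ to 3′ on the strand of the gene, with capitals for a GATA motif (AGATAA or TGATAA, either strand).
A730036I17Rik: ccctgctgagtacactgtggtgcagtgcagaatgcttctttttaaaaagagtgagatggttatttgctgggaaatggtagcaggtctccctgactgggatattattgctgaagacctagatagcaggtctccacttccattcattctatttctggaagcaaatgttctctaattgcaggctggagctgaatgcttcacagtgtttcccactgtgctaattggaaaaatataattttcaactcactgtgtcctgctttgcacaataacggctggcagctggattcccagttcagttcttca
Gm1600: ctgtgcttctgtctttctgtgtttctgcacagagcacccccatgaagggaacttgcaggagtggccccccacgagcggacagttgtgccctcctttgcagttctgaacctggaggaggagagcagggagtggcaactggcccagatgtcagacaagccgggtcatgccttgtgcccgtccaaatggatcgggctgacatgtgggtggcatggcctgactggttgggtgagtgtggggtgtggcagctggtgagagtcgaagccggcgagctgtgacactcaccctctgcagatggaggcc
D030045P18Rik: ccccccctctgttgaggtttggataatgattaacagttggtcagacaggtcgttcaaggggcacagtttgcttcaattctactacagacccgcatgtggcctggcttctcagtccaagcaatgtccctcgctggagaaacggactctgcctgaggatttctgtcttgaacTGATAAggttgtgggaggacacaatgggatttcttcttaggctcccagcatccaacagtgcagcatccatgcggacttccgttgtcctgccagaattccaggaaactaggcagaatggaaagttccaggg
4930429D17Rik: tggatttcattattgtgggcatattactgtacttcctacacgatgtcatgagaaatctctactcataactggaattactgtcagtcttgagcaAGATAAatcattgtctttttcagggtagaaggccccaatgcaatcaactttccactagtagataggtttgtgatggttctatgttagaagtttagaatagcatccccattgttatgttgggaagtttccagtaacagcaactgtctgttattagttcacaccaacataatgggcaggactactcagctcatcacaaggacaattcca
The windows are chr2:129218719-129219018 (plus strand), chr16:10331236-10331535 (minus), chr10:45807454-45807753 (plus) and chr5:103298980-103299279 (minus). Windows were given for 75 of the 104 members and 7 of the 8 called ones, all but 6430710C18Rik. Of the 7, 2 held a GATA motif (28.6%), against 9 of 75 member windows (12%) and 18.6% of all 32851 windows. The T-box motif AGGTGT, on either strand, was in 0 of the 7, in 10 of 75 (13.3%) and in 13.7% of all windows. The median GC content was 46.7% over the 7, 49.7% over the 75 and 52.7% over all windows, and the median number of CpG dinucleotides was 3, 4 and 7. Other GATA forms were not searched for, such as AGATAG, which stands unmarked in the windows of A730036I17Rik and 4930429D17Rik. A match is only a run of letters, and a window without one says nothing about binding.

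A small part of the named genes was called. By the likelihood ratio test of the authors' deposited table (Benjamini-Hochberg), 3 members were higher and 5 lower in FOG2_OE, which is 7.69% of 104 against 5.81% of all listed features. Higher calls made up 1.16% of all features and lower calls 4.65%. The 5 lower members are thus close to the share of the whole table, and the 3 higher ones are too few for more than a count. Of the 84 members under 10 fitted counts, 0 were higher and 4 lower, where 4.42% of such features were called (0.905% higher and 3.52% lower). Of the 20 better covered members 3 were higher and 1 lower, where 7.95% of such features were called (1.56% higher and 6.38% lower). Without adjustment, p was under 0.05 in the authors' deposited table for 14 members, 6 higher and 8 lower, which is 13.5% of them against 17% of all features. The calls rest on the chi-square reference of that test. Under an F reference with 10 residual degrees of freedom 2 of the 8 passed, A730036I17Rik and Gm1600. In the whole table of 34518 features, 70 higher and 370 lower ones passed it. With 4 degrees none of the 8 did, but neither did any of the 34518 features, the one inside Zfpm2 included. The smallest adjusted p of that F test was 0.25, so that it cannot tell the 8 from other features. All 8 called genes were long noncoding RNA genes in both annotations, and 7 of them were intergenic and 1 antisense in GENCODE M21.

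**Figure D1:**
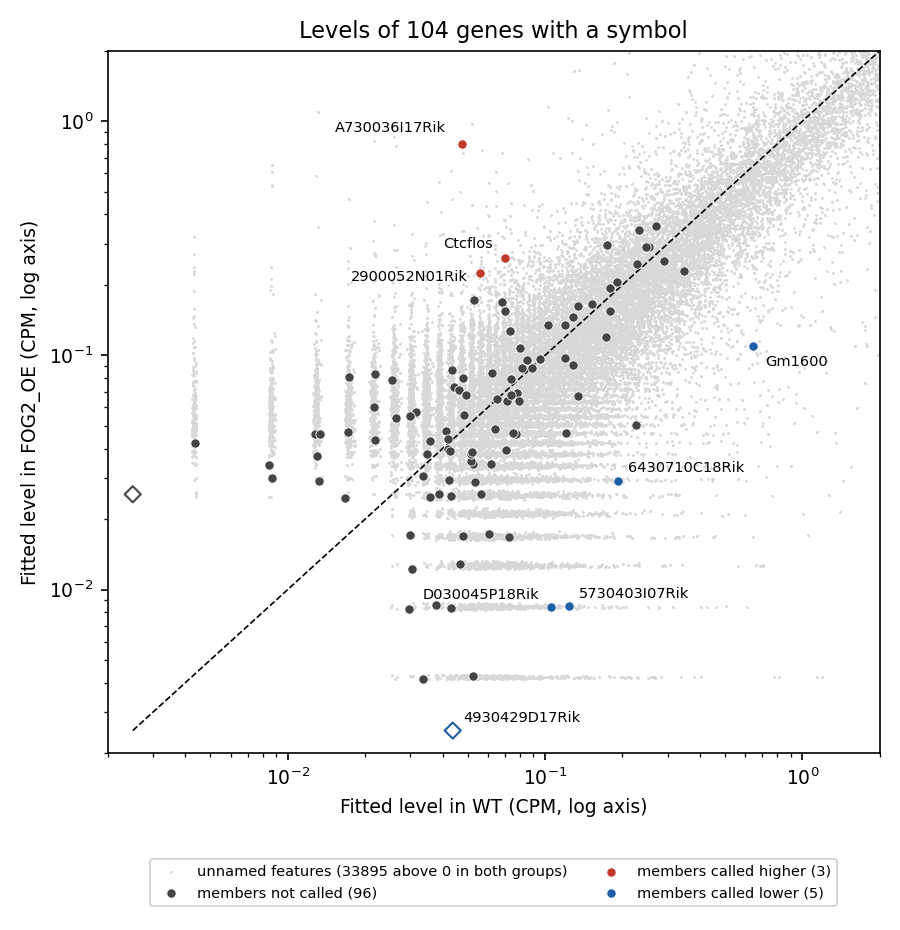
Fitted level of each member in WT (x axis, CPM, log scale) and FOG2_OE (y axis, CPM, log scale), over the unnamed features in grey. The dashed line marks equal levels, and open diamonds are the 2 members at 0 in a group, drawn at the edge: A730036I17Rik, at 0.799 CPM in FOG2_OE and 0.0477 CPM in WT, lies farthest above the line among the members above 0 in both groups.

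Among the genes that rose, A730036I17Rik changed most. This intergenic gene (chromosome 2, 129218969 to 129235606, plus strand) starts 20.2 kb from the start of Slc20a1, a phosphate transporter gene, on the same strand. Its fitted counts were 63.6, 57.8 and 67.7 in FOG2_OE replicates 1 to 3 and 3.39, 3.73 and 3.91 in WT replicates 1 to 3. FOG2_OE libraries were thus high and WT libraries low, but as fitted values these cannot show overlap between groups. The authors' deposited table lists a log2 difference of 4.02 (implied SE 0.62, adjusted p 1.3e-09), and the fitted CPM was 16.8-fold higher. It was the member with the highest mean level, through FOG2_OE alone: in WT it stood at 0.0477 CPM.

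The other higher calls were smaller. 2900052N01Rik (chromosome 9, 46913603 to 46927366, plus strand) lies far from any coding gene, 617 kb from the start of the adhesion molecule gene Cadm1. It had 17.9, 16.3 and 19.1 fitted counts in FOG2_OE and 3.97, 4.37 and 4.58 in WT. The log2 difference listed by the authors' deposited table was 1.98 (implied SE 0.64, adjusted p 0.0278). Ctcflos (chromosome 2, 173124749 to 173133204, plus strand) is named for the strand opposite to Ctcfl, a germ-line paralogue of the insulator protein CTCF, and starts 5.22 kb from its start. Ctcflos had 20.7, 18.8 and 22.1 fitted counts in FOG2_OE and 4.97, 5.48 and 5.75 in WT. Ctcflos is listed in the authors' deposited table with a log2 difference of 1.87 (adjusted p 0.0411), and its implied SE was 0.62. None of the 8 called genes has a GENCODE exon over an exon of a coding gene, on either strand.

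Among the genes that fell, Gm1600 was the most abundant. It is an intergenic gene (chromosome 16, 10324105 to 10331285, minus strand) that starts 17.3 kb from the start of Emp2, an epithelial membrane protein gene. Fitted counts were 8.75, 7.96 and 9.33 in FOG2_OE and 45.7, 50.4 and 52.9 in WT. The authors' deposited table lists a log2 difference of -2.53 (implied SE 0.48, adjusted p 8.6e-06), and the fitted CPM was 5.85-fold lower. At 0.644 CPM it had the highest WT level of the 104.

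The remaining 4 lower genes were scarcer. 5730403I07Rik (chromosome 9, 77366412 to 77399416, minus strand) starts 46.4 kb from Mlip, which encodes a lamin-interacting protein of muscle. It had 0.676, 0.615 and 0.721 fitted counts in FOG2_OE and 8.78, 9.67 and 10.1 in WT, or about 2 against 29 counts over the groups. WT was 14.5-fold higher in fitted CPM, with a 95% counting interval of 3.75 to 128 (exact, from the rounded sums, counting error only). For this gene the authors' deposited table lists a log2 difference of -3.63 and an adjusted p of 0.0064. 6430710C18Rik (chromosome 2, 72745846 to 72813717, minus strand), 167 kb from the start of the transcription factor gene Sp3, had 2.32, 2.11 and 2.47 fitted counts in FOG2_OE and 13.6, 15.0 and 15.8 in WT. This gave a log2 difference of -2.65 (implied SE 0.78), listed with an adjusted p of 0.0088 by the authors' deposited table. Both were several-fold lower in FOG2_OE and lay under 20 fitted counts in every library.

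D030045P18Rik and 4930429D17Rik were almost empty in FOG2_OE. D030045P18Rik (chromosome 10, 45807704 to 45852018, plus strand) lies 230 kb from the start of Hace1, a ubiquitin ligase gene. It had 0.667, 0.607 and 0.711 fitted counts in FOG2_OE and 7.53, 8.29 and 8.70 in WT. WT was 12.6-fold higher in fitted CPM, with a 95% counting interval of 3.19 to 111. For D030045P18Rik the authors' deposited table lists a log2 difference of -3.43 at an adjusted p of 0.0249. 4930429D17Rik (chromosome 5, 103230375 to 103299029, minus strand) starts 87.7 kb from the start of Mapk10, the gene of the kinase JNK3. It stood at 0 in the 3 FOG2_OE libraries and at 3.11, 3.43 and 3.6 fitted counts in WT, so that it was at least 3.45-fold lower in FOG2_OE by a floor of 3 counts over the group. The 95% counting interval of the rounded sums, which is wider, starts at 2.29-fold. The authors' deposited table gives it an adjusted p of 0.0409. Of the 8 called genes it alone lost its call (adjusted p 0.0597, same test) when the median fold change of all features was set to 0. Nearest to the threshold in the authors' deposited table were Ctcflos on the inside (adjusted p 0.0411) and 2310069B03Rik on the outside (0.0539). Fitted levels of 2310069B03Rik, a gene picked with its values in view, were 0.0506 CPM for FOG2_OE and 0.225 CPM for WT.

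**Figure D2:**
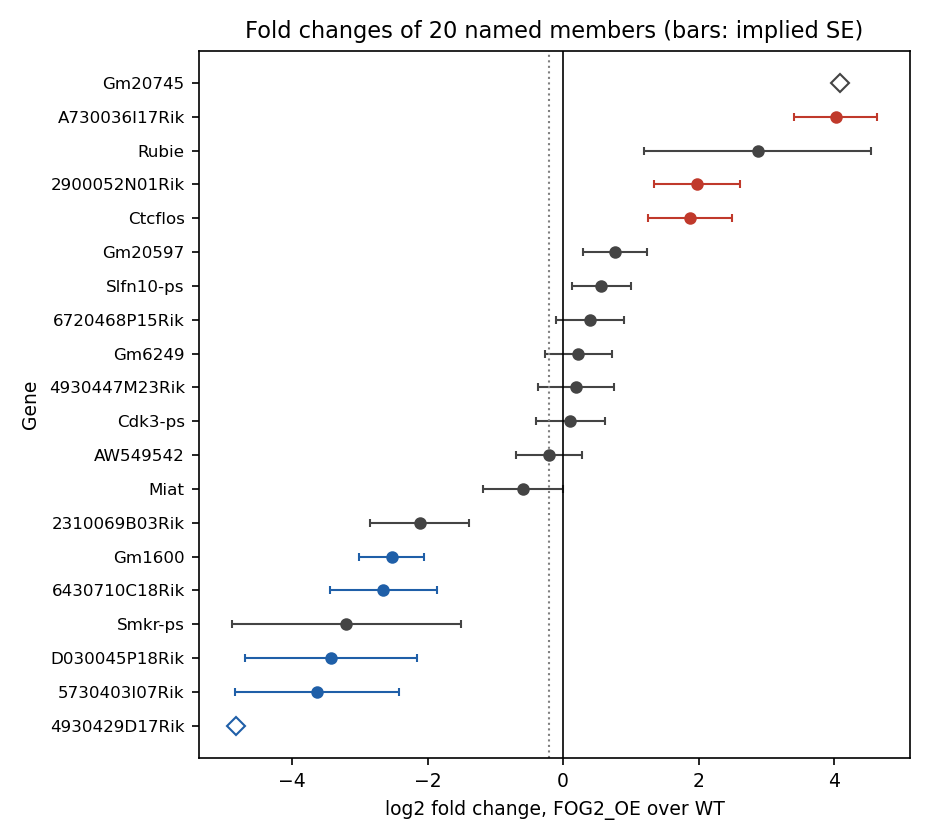
Fold change (x axis, log2, FOG2_OE over WT) of 20 members, in order of size, with bars of 1 implied standard error, red for called higher, blue for called lower and grey for not called. Open diamonds are genes at 0 in a group, which have no bar, and the dotted line is the median of all features, -0.21: the 8 called genes lie at 1.87 and above or at -2.53 and below.

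Most of the best expressed members were not called. The 10 members with the highest mean fitted level held 34.3% of the summed member CPM in FOG2_OE and 31.0% in WT. Apart from A730036I17Rik and Gm1600, the authors' deposited table puts their log2 differences between -0.59 and 0.77, with adjusted p from 0.41 to 0.95. The 8 genes were 6720468P15Rik, Slfn10-ps, Miat, 4930447M23Rik, AW549542, Gm6249, Cdk3-ps and Gm20597, with implied standard errors of 0.44 to 0.59. With errors of that size, and by the rough guide above, a doubling or a halving would not have passed the test. 6720468P15Rik, a long noncoding RNA gene on chromosome 19 (57508564 to 57512788), led them with 28.3, 25.7 and 30.1 fitted counts in FOG2_OE and 19.2, 21.1 and 22.1 in WT. Gm20597 (chromosome 10, 53498443 to 53518989), which had the largest uncalled difference of these 8, had 23.6, 21.4 and 25.1 against 12.3, 13.6 and 14.2. Per kilobase of GENCODE exon, 92 members could be compared, with a median of 0.0298 CPM per kb and the highest value, 0.167, in the pseudogene Gm12070. Among the 10 members above, 8 of which have an exon length, 4930447M23Rik (0.154 CPM per kb) and Cdk3-ps (0.152) stood above A730036I17Rik (0.117), Gm6249 (0.0809), Gm1600 (0.0798) and Slfn10-ps (0.0794).

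Miat was the only one of the 104 among 96 symbols of known noncoding RNAs that were looked up. That list held nuclear and imprinted RNAs, small nucleolar RNA hosts, structured small RNAs and cardiac noncoding RNAs. The lookup was by symbol, and a known RNA listed under an assembler identifier would not be found. Over exons of GENCODE long noncoding RNAs lay 1518 unnamed features, so that the other symbols cannot be taken as absent. Miat, the myocardial infarction associated transcript, is a nuclear long noncoding RNA named for a genetic association with heart attack in humans. It had 18.2, 16.6 and 19.4 fitted counts in FOG2_OE and 24.6, 27.1 and 28.5 in WT (chromosome 5, 112213228 to 112228948, minus strand). The log2 difference of Miat, -0.59 (implied SE 0.59), did not pass the test of the authors' deposited table (adjusted p 0.67).

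The member AW549542 was the only one whose nearest coding start belonged to a gene of the heart lists (rhythm and calcium, atrial and sarcomere, and cardiac transcription factors). It starts 90.3 kb from the start of Tbx3, a T-box gene of the conduction system (chromosome 5, 119570129 to 119580358, minus strand). Fitted counts were 20.05, 18.2 and 21.4 in FOG2_OE and 20.6, 22.7 and 23.8 in WT. The authors' deposited table lists a log2 difference of -0.20 (implied SE 0.49, adjusted p 0.89), which turned to 0.013 with the median of all features set to 0.

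Large but uncalled fold changes came from almost empty genes. Gm20745 (chromosome 9, 68017964 to 68025714) stood at 0 in WT and at 2.03, 1.85 and 2.16 fitted counts in FOG2_OE, at least 1.97-fold higher by the floor of 3 counts over the group, while its 95% counting interval starts at 1.15-fold. The authors' deposited table gives Gm20745 an adjusted p of 0.184. Smkr-ps, named as a pseudogene of a small lysine-rich protein gene, had about 1 count in FOG2_OE and 12 in WT. WT was 12.3-fold higher, with a counting interval of 1.82 to 525, and the authors' deposited table lists an adjusted p of 0.124. Rubie, an RNA named for its place upstream of Bmp4, had about 10 counts in FOG2_OE and 1 in WT, a 9.67-fold difference with a counting interval of 1.39 to 424 and, by the authors' deposited table, an adjusted p of 0.185. None of the 3 passed the test, and their intervals span more than 100-fold or have no upper end.

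The 16 pseudogenes among the members were mostly scarce. Of these 16, 0 were called by the likelihood ratio test of the authors' deposited table, where 5.81% of all features were, so that a count of 0 is near the background. Their median log2 fold change was -0.25, with 5 above and 11 below 0. The values ran from -3.20 for Smkr-ps to 1.28 for Trim30e-ps1, a copy from a family of interferon-linked genes, in the authors' deposited table. At an unadjusted p under 0.05 Smkr-ps alone of the 16 passed. It is a pseudogene by name only, and both annotations class it as a long noncoding RNA gene. Slfn10-ps, from the Schlafen family, was the best expressed, with 27.3, 24.8 and 29.1 fitted counts in FOG2_OE and 16.5, 18.1 and 19 in WT. For Slfn10-ps the authors' deposited table lists a log2 difference of 0.56 (implied SE 0.44, adjusted p 0.55). How reads shared with parent genes were assigned is not stated, so that pseudogene values are uncertain. Of the 5 genes with a coding record 0 were called by that test and 0 had an unadjusted p under 0.05, which for 5 genes is likewise near the background. Slc4a9, for one, stood at 0.0652 and 0.0653 CPM.

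The named genes were spread about evenly on both sides of 0. Their median log2 fold change was 0.085 (quartiles -0.68 and 0.73), against -0.22 for the unnamed features, in the authors' deposited table. Of the members 54 were above and 50 below 0, or 48.1% below, against 60.7% of the unnamed features. Among the 20 members with at least 10 fitted counts the median was 0.15, with 14 above 0, while the unnamed features of that range had a median of -0.19 and 63.6% below 0. For the 84 scarcer members and the unnamed features under 10 fitted counts, the medians were -0.044 and -0.25 in the authors' deposited table. Of these 84, 40 were above and 44 below 0, or 52.4% below, against 58.8% of the unnamed features of that range. The 1518 unnamed features over exons of GENCODE long noncoding RNAs had a median of -0.17, with 59.0% below 0 and 7.18% called. The 5292 unnamed features that span at least 1 kb had a median of -0.23, with 69.1% below 0 and 11.9% called. Both classes were better covered than the members, with a median of 15.3 and 74.7 fitted counts. With the median of all features set to 0, 64 members were above and 40 below it. These shares are descriptions. Features share libraries and some share transcripts, and no test of the difference was run.

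**Figure D3:**
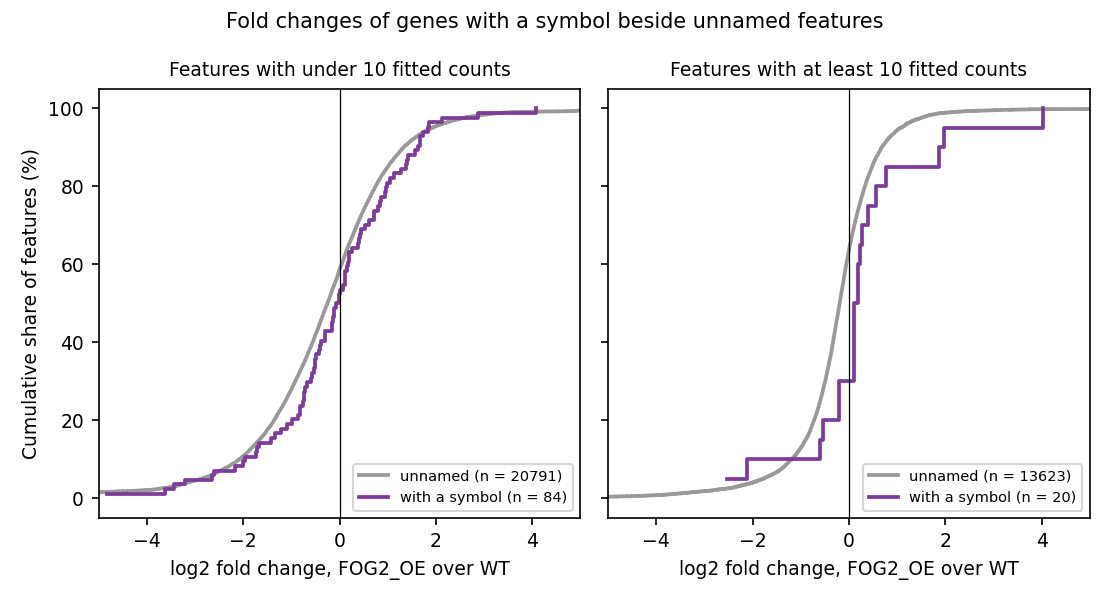
Cumulative share of features (y axis, %) by log2 fold change of FOG2_OE over WT (x axis), for genes with a symbol and unnamed features, under 10 fitted counts per library on the left and at least 10 on the right. On the right, the purple line of the 20 genes with a symbol crosses 0 at 30%, and the grey line of the unnamed features at 63.6%.

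Together the 104 genes held 9.37 CPM of a FOG2_OE library and 8.82 CPM of a WT library, a minute part of the 52563 and 44378 CPM of all listed features. By kind of name, the Rik genes gave 2 higher and 4 lower calls of 52, the Gm genes 0 and 1 of 31, the -ps genes 0 and 0 of 8 and the others 1 and 0 of 13 in the authors' deposited table. Calls were 7 of 51 among members listed on the strand of their nearest coding gene and 1 of 53 among those on the opposite strand, in the authors' deposited table. Over all features 5.81% were called, 1.16% higher and 4.65% lower, and no difference between these classes of members was tested. The labels name a kit that does not mark strand, so that this split rests on annotation. The median distance to the nearest coding start was 76.6 kb over the 104, and 27 members started within 25 kb of one. Of these 27, 2 were called higher and 1 lower, and of the 41 beyond 100 kb, 1 and 2, in the authors' deposited table. No member held a microRNA hairpin of the RefSeq table, and A430088P11Rik was the one with exons over those of a coding gene, Fam83f.

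Few unnamed features lay close to the members. No unnamed feature overlapped a member, and 18 lay within 10 kb of 10 members, of which 0 were called by the likelihood ratio test of the authors' deposited table (0 at an unadjusted p under 0.05). Within 50 kb, 4 of the 8 called genes had 14 unnamed neighbours, and 0 of the 14 were called by that test (3 at an unadjusted p under 0.05). With 5.81% of all features called, counts of 0 among 18 or 14 features are near the background. All 14 fold changes of the authors' deposited table had the sign of the called gene (13 with the median of all features set to 0). Around uncalled members 93 of 170 neighbours (54.7%) had the member's sign. The 14 neighbours are few and form 4 groups, and whether a group is made of pieces of 1 transcript was not tested.

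By gene, the 6 neighbours of 5730403I07Rik, which lie 26.0 to 30.3 kb upstream, ranged in the authors' deposited table from a log2 difference of -3.24 to one of -0.01. Their summed level was 0.591 CPM for FOG2_OE and 0.886 CPM for WT. The 5 neighbours of Ctcflos, 7.80 to 12.5 kb upstream, ranged there from 0.16 to 0.81 (the authors' deposited table); the smallest adjusted p within 10 kb was 0.75, for MSTRG.51073. Near Gm1600, MSTRG.32538, 42.6 kb away, narrowly missed a call: the authors' deposited table lists a log2 difference of -1.14 (adjusted p 0.0508). It was more abundant than Gm1600, with 1.2 CPM in FOG2_OE and 2.65 CPM in WT. MSTRG.49065, 47.8 kb from A730036I17Rik, stood at 1.95 CPM in FOG2_OE and 0.845 CPM in WT, and the authors' deposited table gives it a log2 difference of 1.2 at an adjusted p of 0.102. Both fold changes were smaller than those of the called genes beside them, and whether they differ was not tested.

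**Figure D4:**
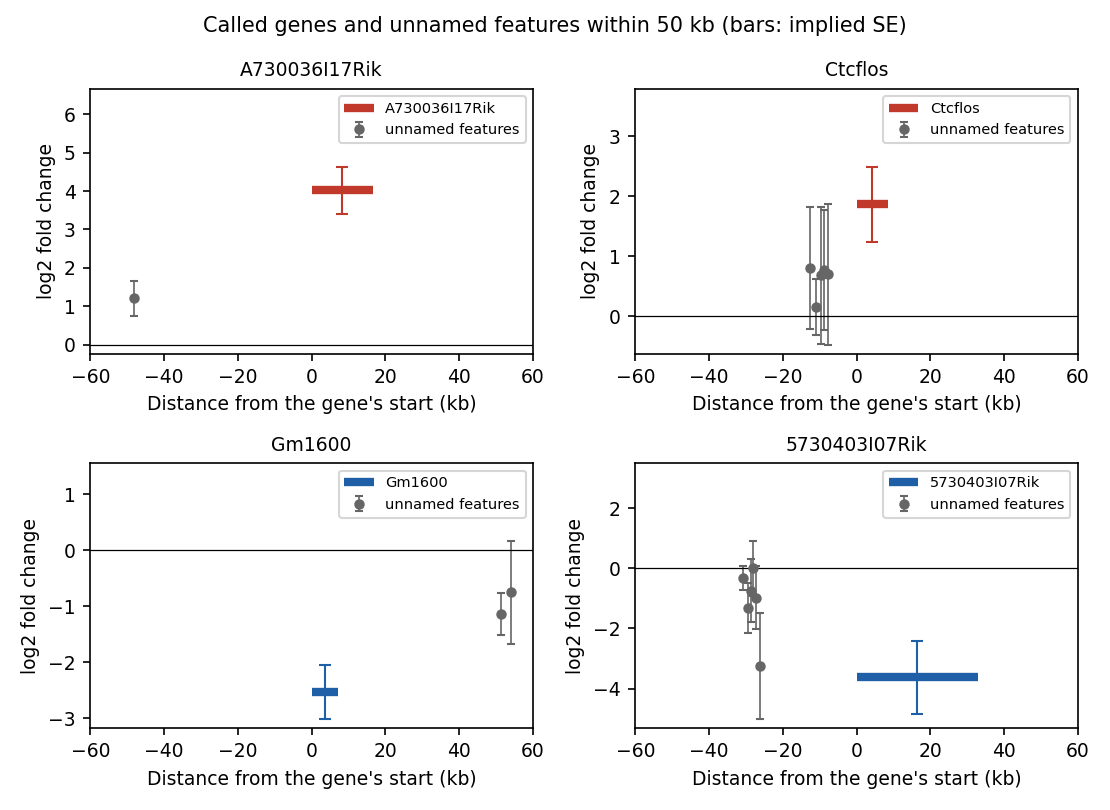
Fold change (y axis, log2, FOG2_OE over WT) by distance from the start of the gene (x axis, kb, downstream positive) for the 4 called genes with unnamed features within 50 kb. Thick lines span the gene and grey points are unnamed features, with bars of 1 implied standard error: all 14 points lie on the gene's side of 0, and none was called.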

How the data were processed

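The data were 6 libraries, 3 FOG2_OE and 3 WT, in 1 table with a row for each of 34518 features. Per the submitters' processing notes, the tools were deepTools, edgeR, HTSeq 0.6.0 and STAR, without roles or order, and the build was mm10. Per the file headers, the authors deposited for each feature its fold change and mean CPM on the log2 scale, the p-value of a likelihood ratio test with its score (the ratio itself), and the p-value after adjustment. The sample columns were found to be fitted values, constant multiples of each other within a group, so that count tests, replicate spread, left-out replicates and a replicate block could not be had. The authors' deposited comparison, adjusted over all features, was used in place of an edgeR fit. The labels do not say whether libraries came from separate animals, and its p-values measure only the spread between these libraries.

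Members were rows whose identifier does not start with MSTRG. The members and lists were chosen with earlier results of these data known. Effective library sizes were solved from the 788 features with over 300 fitted counts. The implied standard error rests on the negative binomial dispersion at which the fitted values return the deposited likelihood ratio, or, for ratios under 0.1, on that of features of like abundance. The procedure was run on counts simulated with known dispersions, which were the ones it had solved from these data. That run cannot check how well the authors' model estimated dispersion from 3 libraries in each group. At the deposited scale the recomputed calls numbered 2007, as in the table, which the construction fixes. Counting intervals (95%, Clopper-Pearson) used group sums rounded to whole numbers, and the floor was 3 counts over a group; both cover counting error only.

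Table starts count from 0 (96 of 102 symbols found in RefSeq start 1 base later there), and positions are printed from 1. Of the symbols, 92 were found in GENCODE M21, of the same build. Promoter windows came from RefSeq (GRCm38.p6). Named were all called members, those on the list of known noncoding RNAs, the 10 with the highest mean level, those at 0 in a group and the 3 uncalled ones with the largest fold change. Unnamed features were to be named within 10 kb of a called member. MSTRG.32538 and MSTRG.49065 lie farther out and were named after their values were seen. Alternatives were 2 other scales, 2 reference distributions, a minimum of 10 fitted counts and a stricter threshold. Python 3.11.15, numpy 2.4.6, scipy 1.17.1, pandas 2.3.3 and matplotlib 3.10.9 were used.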

Additional observations from a re-analysis of the deposited data

How the results depend on the processing

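Of the 6 alternatives only the 2 rescalings could move a fold change, by about 0.2, so that they bear on calls and not on the direction of the 8 called genes. Of the 3 higher and 5 lower calls, 3 and 4 remained when the median of all features (-0.21) or that of the features with at least 100 fitted counts (-0.19) was set to 0. In the whole table the lower share of calls moved from 80.0% to 68.2% and 70.6%. Its calls were then 560 higher and 1199 lower, and 521 higher and 1252 lower, against 402 and 1605 at the deposited scale. With a minimum of 10 fitted counts 20 members were left, with 3 higher and 2 lower calls: 2310069B03Rik then passed (adjusted p = 0.0396) and 4 of the 8 were kept. Of all 13643 features with that minimum, 234 were called higher and 943 lower. At an adjusted p under 0.01, 1 higher and 3 lower genes passed, against 210 higher and 929 lower of all 34518 features. Under an F reference with 10 residual degrees of freedom in place of the chi-square, 1 higher and 1 lower gene passed. These were A730036I17Rik (adjusted p = 0.0109, F test) and Gm1600 (0.0345), where 70 higher and 370 lower of all features passed. With 4 such degrees, 0 higher and 0 lower members passed the F test (3 and 6 at an unadjusted p under 0.05), and 0 of all 34518 features. The median log2 fold change of the members was 0.085, 0.15 with the minimum of 10 and 0.30 with the median of all features set to 0. AW549542 turned from -0.20 to 0.013 on that scale. No unnamed feature overlapped a called member, so that the count of those called in its direction was fixed at 0 there. Within 10 kb that count was 0 of 3 unnamed features, and within 50 kb 0 of 14. With 5.81% of all features called, these few features cannot show whether the window matters.

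No paired analysis was possible because the sample columns hold fitted values and not counts. For the same reason no replicate was left out and no other normalization was run. Fitted counts under 10 for 84 of 104 genes limit the precision, and an uncalled gene cannot be taken as unchanged.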

Other observations

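The 8 called neighbours found within 50 kb of the 104 genes all lay near members that were not called, and they are 8 of 170 features there, where 5.81% of all features were called. Of these, 3 lay together 14.7 to 15.7 kb from Adh6-ps1, a pseudogene of the alcohol dehydrogenase cluster on chromosome 3. All 3 were lower in FOG2_OE in the authors' deposited table, by likelihood ratio test with Benjamini-Hochberg adjustment: MSTRG.55865 at -3.90 on the log2 scale (adjusted p 0.0068), MSTRG.55867 at -3.49 (0.0339) and MSTRG.55866 at -2.35 (0.0421). Beside them on the same strand, 16.3 kb from Adh6-ps1, MSTRG.55871 was not called (log2 difference -0.93, adjusted p 0.50 by the same test). It was more abundant than the 3, with 0.281 CPM in FOG2_OE and 0.538 CPM in WT. Whether these features are pieces of 1 transcript was not tested. Adh6-ps1 itself had 1 count over the FOG2_OE libraries and 8 over the WT libraries (adjusted p 0.37 in the authors' deposited table). Near Slfn10-ps, MSTRG.15140, 49.2 kb away, was higher in FOG2_OE with 1.28 against 0.213 CPM (log2 difference 2.57, adjusted p 0.018 in the authors' deposited table). These features were picked with their values in view.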
